A study of Mus musculus with 16 samples.

Results

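The genes described here were 9 components of JAK-STAT signalling: the feedback inhibitors Socs1, Socs3 and Cish, the transcription factors Stat2, Stat3, Stat5a and Stat6, and the kinases Jak1 and Jak2. They were chosen by name, with earlier results of these data known. Looked up by symbol in an expression table of 9614 genes, 7 of the 9 were in it. Socs1 and Cish are not analysed here. RNA-seq of polyA RNA was performed on bone marrow-derived macrophages (BMDM) from C57BL/6 male mice, 8 weeks old, to ask how loss of the negative elongation factor NELF alters the response to lipopolysaccharide (LPS) and its repression by the synthetic glucocorticoid dexamethasone (Dex). WT mice had the genotype LysM-Cre:NELF-B wt/wt, and the knockout (NELF-B KO) mice LysM-Cre:NELF-B fl/fl. All mice thus carried the Cre recombinase, which LysM drives in myeloid cells, and in the KO it removes a floxed exon of Nelfb. BMDM were untreated (2 libraries per genotype), or treated for 1 hr with 10 ng/ml LPS (3 per genotype) or with 10 ng/ml LPS and 100 nM Dex together (LPS + Dex, 3 per genotype), which gave 16 libraries. They came from 3 mice per genotype, called A, B and C here, and mice A and B gave a library of every treatment whereas mice C gave no untreated one. The labels tie libraries B of the WT and of the KO to the same run name and libraries C to the same form of sample number, and libraries A were those remaining.

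A cytokine that binds its receptor brings receptor-bound Janus kinases (JAKs) together, the kinases phosphorylate the receptor and signal transducers and activators of transcription (STATs), and STAT dimers enter the nucleus and activate genes. Among the activated genes are those of the suppressor of cytokine signalling (SOCS) family, whose proteins bind JAKs or receptors and shut the signal off. In macrophages exposed to LPS, a component of the outer membrane of bacteria, Socs3 restrains signalling by interleukin 6 and related cytokines that the cells themselves begin to secrete.

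Summed over the genes of the table, libraries held between 25.0 and 49.7 M reads, as recovered from the steps between low values. Values are log2 CPM, that is read counts scaled to the size of the library and put on a log scale, where a difference of 1 is a doubling. Nelfb, the targeted gene, was at 5.59 to 6.21 log2 CPM in the 8 WT libraries and at 3.27 to 4.38 in the 8 KO libraries, so no KO library reached the level of any WT library. The means differed by -2.11 untreated, -2.02 under LPS and -2.00 under LPS + Dex (limma FDR = 0.889, 0.105 and 0.0889, and with pairs of mice as replicate block 0.00322, 0.043 and 0.0328). Within the KO, mouse B held more Nelfb than mice A and C, at 4.21 to 4.38 log2 CPM against 3.27 to 3.53. Counts cover the whole gene and not the floxed exon alone. Of 8 macrophage markers, Csf1r, Cd68, Itgam and Cd14 were at 8.85 log2 CPM or above in every library, Fcgr1 at 7.37 to 8.76 and Mertk at 6.22 to 8.04, whereas Lyz2, the gene that carries LysM-Cre, was at 4.30 to 6.33 and Adgre1 is not analysed here. Of the fixed markers of other cells, 1 of 5 for neutrophils (S100a8), 1 of 3 for T cells (Cd4), 1 of 3 for dendritic cells (Itgax) and 3 of 3 for fibroblasts were in the table, and none of the 3 for B cells or the 3 for erythroid cells. S100a8 was at 2.45 to 5.38 log2 CPM over all libraries, Cd4 at 2.37 to 5.89, Itgax at 2.56 to 4.28, Col1a1 at 3.89 to 5.67, Col1a2 at 4.04 to 5.91 and Dcn at 1.17 to 3.50. Under LPS + Dex S100a8 was at 4.37 to 5.38 in the KO and 2.97 to 4.60 in the WT. Itgax went the other way, at 2.556 to 3.299 in the KO and 2.926 to 4.232 in the WT. Untreated, Itgax was at 2.805 to 3.478 in the KO and 4.094 to 4.221 in the WT, without overlap. The part of these cells in the results was not tested. The untreated library of WT mouse A stood apart: across genes it correlated with the other libraries at 0.830 to 0.909, against 0.924 to 0.993 among the other 15. The LPS changes of WT members that rest on it, and the counts of pathway genes, are therefore also given without it. In bulk RNA a change in the number of cells of a type and a change in RNA per cell cannot be told apart.

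Socs3 lies on chromosome 11 (117966079 to 117970047, minus strand, GRCm38, GENCODE vM21). Its 250 bases upstream of the RefSeq start are shown because they hold the only exact match to the STAT palindrome TTCNNNGAA, with any base at N, among the upstream windows of the 7 members. The window is chr11:117969367-117969616 on the minus strand of GRCm38.p6, and capitals mark the match, TTCTTAGAA, which spans bases -154 to -146 from the start.
Socs3 upstream window: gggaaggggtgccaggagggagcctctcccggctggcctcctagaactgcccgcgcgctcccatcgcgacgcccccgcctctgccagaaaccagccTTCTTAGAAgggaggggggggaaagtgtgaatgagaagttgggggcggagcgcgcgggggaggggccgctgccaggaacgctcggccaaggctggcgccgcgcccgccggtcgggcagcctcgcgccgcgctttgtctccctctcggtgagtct
The palindrome, searched on both strands, occurred in 7.02% of 32851 RefSeq windows of the same length, and a match of letters is a description, not a binding site. GENCODE places the start of its longest Socs3 model further upstream, so the window lies inside the annotated gene span. Binding of STATs here was not measured.

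Socs3 rose with LPS in both genotypes and in each of the 4 mice that had an untreated library. In untreated WT cells it was at 4.98 log2 CPM in mouse A and 5.11 in mouse B, and after 1 hr of LPS it was at 9.51, 9.72 and 9.72 (A, B, C). In the KO it was at 5.24 and 5.14 untreated (A, B) and at 10.28, 10.07 and 10.48 under LPS (A, B, C). Every LPS library lay above every untreated one by more than 4 log2 units. In linear terms WT cells went from 33.0 ± 2.18 CPM (SD, n = 2) to 804 ± 64.9 (n = 3), and KO cells from 36.5 ± 1.79 to 1247 ± 176. The change was 4.61 in the WT (SE 0.15, limma FDR = 2.9e-10, a 24.3-fold rise) and 5.09 in the KO (SE 0.15, FDR = 1e-10, a 34.0-fold rise). Without the untreated library of WT mouse A the WT change was 4.54 (FDR = 1.8e-08). Within a mouse the change was 4.54 (A) and 4.61 (B) in the WT and 5.04 (A) and 4.93 (B) in the KO. Over the 16 libraries Socs3 spanned 5.50 log2 units, and 55 of 9614 genes spanned more, where the median gene spanned 1.02.

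**Figure D1:**
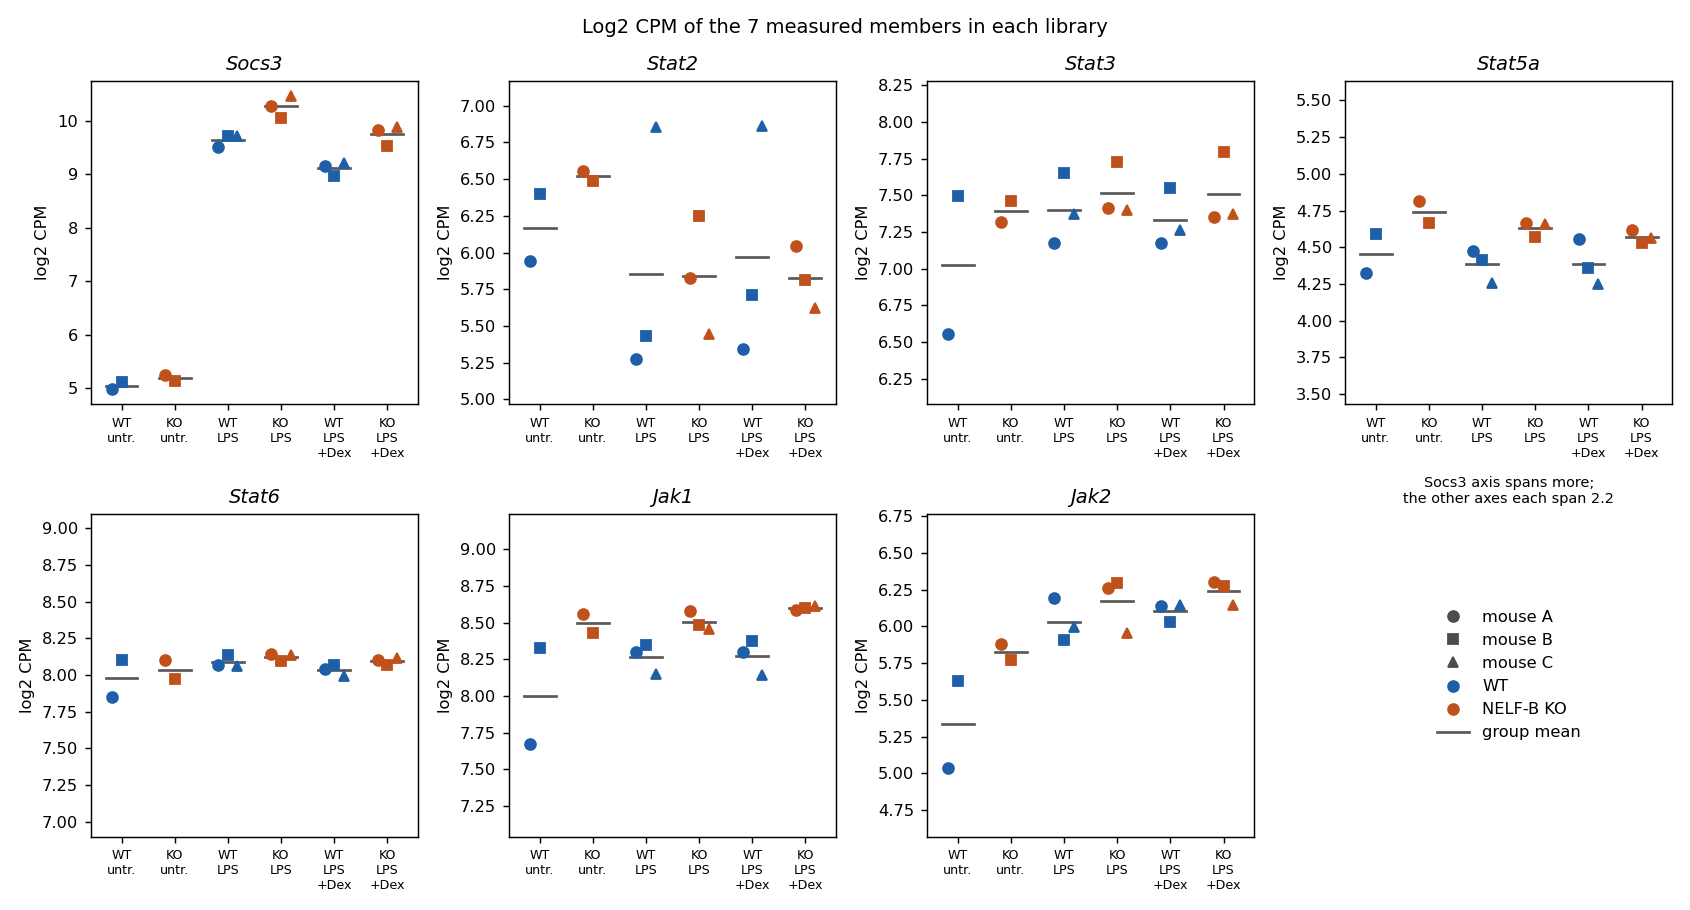
Log2 CPM (vertical axis) of each of the 7 measured members in every library, by genotype and treatment (horizontal axis). Each point is 1 library, its shape gives the mouse, and the line is the group mean. Socs3 rises from about 5 untreated to between 9.51 and 10.48 under LPS on an axis that spans more than the others, the 2 libraries of WT mouse C stand high for Stat2, and Stat6 spans 0.29 over all libraries.

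Measured per length of exon, Socs3 went from a minor to the leading transcript of the set. Untreated WT cells held 11.4 ± 0.755 CPM per kilobase (SD, n = 2) of Socs3, the fifth of the 7 members, below Stat6 at 57.5 ± 6.97, Jak1 at 36.4 ± 11.5, Stat3 at 14.4 ± 6.39 and Stat2 at 12.3 ± 2.73. The ranges of Socs3, Stat2 and Stat3 over the libraries of that group overlapped, so their order is not resolved, and Jak2 (8.18) and Stat5a (3.09) were below them. Under LPS Socs3 was first at 278 ± 22.5 CPM per kilobase in WT cells and 431 ± 60.8 in KO cells (n = 3 each), against 61.9 and 63.5 for Stat6, the next. It remained first under LPS + Dex.

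Dex given together with LPS lowered Socs3 in all 6 mice, although the change passed the threshold only when libraries of the same mouse were paired. Socs3 under LPS + Dex was at 9.16, 8.98 and 9.22 log2 CPM in the WT (A, B, C) and at 9.83, 9.53 and 9.90 in the KO (A, B, C). In each genotype all 3 LPS + Dex libraries lay below all 3 LPS libraries. Groups did not overlap, in either direction, for 5.97% of all genes in the WT and 9.67% in the KO. Within a mouse, Dex changed Socs3 by between -0.74 and -0.35 in the WT and between -0.58 and -0.45 in the KO. Over the 6 mice the mean change was -0.53 ± 0.13 (SD), lower in 6 of 6, for which an exact two-sided sign-flip permutation test gave p = 0.03125, the smallest that 6 mice allow. The test was run for Socs3 alone, and a fall in all 6 mice was not particular to it. Stat6 was also lower in all 6, by much less (-0.072 to -0.028 in the WT and -0.039 to -0.023 in the KO). The share of all genes lower in all 6 mice was not counted.

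The limma fit of all libraries without pairing gave -0.53 in the WT (SE 0.13, FDR = 0.128) and -0.52 in the KO (SE 0.13, FDR = 0.124), neither of which was called at FDR below 0.1 and more than 1.3-fold. With the mouse as replicate block the same changes had an SE of 0.08 and an FDR of 0.0125 in the WT and 0.0118 in the KO, and both were called. Over the alternatives tried, FDR ran from 0.0125 to 0.611 in the WT and from 0.0118 to 0.629 in the KO, with the direction kept throughout. Under the block 1.22% of all genes were called lower with Dex for the WT and 1.45% for the KO. The libraries under LPS serve both the LPS and the Dex comparison, so a high LPS value raises the one and lowers the other.

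Part of the LPS rise of Socs3 was missing with Dex, and most of it was kept. In the 4 mice with all 3 treatments, the share of the rise in CPM that was missing under LPS + Dex was 22.7% (A) and 41.9% (B) for WT cells, and 27.7% (A) and 31.9% (B) for KO cells. With Dex, Socs3 still stood at 9.12 ± 0.13 log2 CPM (SD, n = 3) in WT cells and at 9.75 ± 0.19 (n = 3) in KO cells. The Dex change differed by 0.01 between genotypes (SE 0.19, FDR = 1, 95% interval -0.39 to 0.41), an interval that includes a difference as large as most of the change itself.

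Socs3 was higher in NELF-B KO than in WT cells in every pair of mice, a difference that passed the FDR threshold in 1 treatment and only with pairing. Stat5a and Jak1 were also higher in the KO in every pair of every treatment. The share of all genes higher in every pair was not counted. Untreated, Socs3 in the KO exceeded the WT by 0.26 in mice A and by 0.03 in mice B. Under LPS the excess was 0.77 in pair A, 0.35 in pair B and 0.76 in pair C, and under LPS + Dex it was 0.67, 0.56 and 0.68. All 3 KO libraries lay above all 3 WT libraries under LPS, and again under LPS + Dex. Untreated, both KO libraries lay above both WT libraries, so any pairing of the mice would give the same direction. When 1 library was left out at a time, the untreated difference ran from 0.079 to 0.214. Groups did not overlap, in either direction, for 29.4% of all genes untreated, 13.7% under LPS and 17.8% under LPS + Dex. In limma the Socs3 differences were 0.63 under LPS (SE 0.14, FDR = 0.254, 1.54-fold) and 0.64 under LPS + Dex (SE 0.13, FDR = 0.183, 1.56-fold). Neither was called at FDR below 0.05. Unadjusted, p was 0.00235 under LPS and 0.00177 under LPS + Dex, and an unadjusted p below 0.05 with more than 1.5-fold was met by 3.53% and 3.75% of all genes. With the pair letter as replicate block the difference under LPS + Dex was called (FDR = 0.0376, where 0.364% of all genes were called higher) and that under LPS was not (FDR = 0.0913, where 0.0936% were). The mice of a pair are different animals, and pair A holds the mice that remained, so the call rests in part on an inferred pairing. Over the alternatives FDR under LPS + Dex ran from 0.0376 to 0.556. The LPS response itself differed by 0.48 between genotypes (SE 0.21, FDR = 0.69), which was not called.

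The 3 genes of the table whose levels followed Socs3 most closely, by Pearson's r over the 16 libraries after each genotype's mean was subtracted, were Ppp1r15a (0.9955), Egr3 (0.995) and Nfkbia (0.9942). Ppp1r15a encodes a regulatory subunit of a phosphatase that restores translation after stress, Egr3 an immediate early transcription factor, and Nfkbia the NF-kB inhibitor IkBa. Since LPS sets most of the spread of each of these genes, the r values describe a shared rise. Unlike Socs3, Egr3 had a lower mean in the KO than in the WT under LPS (3.59 ± 0.27 against 3.79 ± 0.36, SD, n = 3 each).

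Among the STATs, Stat2 varied most and no STAT was called in the unpaired fit of any comparison. Stat2 carries signals of type I interferons together with Irf9, and lies on chromosome 10 (128270559 to 128292849, plus strand, GRCm38). Its 250 bases upstream of the RefSeq start, chr10:128270248-128270497 on the plus strand of GRCm38.p6, are shown because 2 of the 5 motifs searched had a match in them. Capitals mark TTTCAGTTTC at bases -222 to -213, a match on the other strand to the repeat GAAANNGAAA that resembles an interferon-stimulated response element, and TTCCCTAGAA at -210 to -201, a match to the wider STAT palindrome TTCNNNNGAA.
Stat2 upstream window: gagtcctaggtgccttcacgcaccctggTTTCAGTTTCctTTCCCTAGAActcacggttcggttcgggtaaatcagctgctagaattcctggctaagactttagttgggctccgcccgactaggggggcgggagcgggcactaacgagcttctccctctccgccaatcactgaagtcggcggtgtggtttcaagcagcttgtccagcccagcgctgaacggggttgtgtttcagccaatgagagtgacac
These motifs, which do not overlap each other here, occurred in 2.98% and 5.85% of RefSeq windows. The windows of Stat3, Stat5a, Stat6, Jak1 and Jak2 had no match to them, to TTCNNNGAA, to the NF-kB-like GGGNNTTTCC (1.41% of windows) or to the glucocorticoid receptor-like ACANNNTGT (5.84%), with both strands searched.

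Stat2 was lower with LPS in 4 of the 4 mice that had both libraries, and the difference was called in the WT once libraries of a mouse were paired. In the WT it went from 5.94 to 5.27 log2 CPM in mouse A and from 6.40 to 5.43 in mouse B, but WT mouse C, with no untreated library, was at 6.86 under LPS. In the KO it went from 6.56 to 5.83 in mouse A and from 6.49 to 6.25 in mouse B, and mouse C was at 5.44. Unpaired, the change was -0.32 in the WT (SE 0.47, limma FDR = 0.663) and -0.68 in the KO (SE 0.47, FDR = 1). With the mouse as replicate block it was -0.79 in the WT (SE 0.15, FDR = 0.0111), which was called, in a fit that called 9.11% of all genes lower. Over the alternatives FDR in the WT ran from 0.00177 to 0.979. In the KO the block gave -0.53 (FDR = 0.0801), under the 1.5-fold threshold. A call in 1 genotype alone does not show a difference between them, and the genotype difference in the response of Stat2 under the block was 0.26 (SE 0.21, FDR = 0.447), and unpaired it was -0.37.

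WT mouse C carried its high Stat2 into LPS + Dex as well, at 6.86 log2 CPM, where mice A and B were at 5.34 and 5.71 and the KO mice at 5.62 to 6.04. Irf9, named after its values were seen, stood high in the same 2 libraries, at 6.29 and 6.30 in WT mouse C against 5.75 to 5.90 in WT mice A and B under LPS and LPS + Dex. The genotype difference of Stat2 turned on mice C: KO exceeded WT under LPS by 0.55 in mice A and 0.82 in mice B and was lower by 1.41 in mice C (mean -0.01, SE 0.42, FDR = 0.998). Under LPS, WT mouse C was the highest WT library and KO mouse C, at 5.44, the lowest KO library. Leaving out 1 library at a time reversed the difference under LPS for 2 of 6 libraries. Without WT mouse C the difference was 0.49 under LPS and 0.30 under LPS + Dex, neither of them called. Dex changed Stat2 by 0.01 to 0.28 in WT mice and by -0.44 to 0.22 in KO mice.

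Stat3, the main effector of interleukin 6 and interleukin 10, Stat5a, which acts below growth factor and cytokine receptors, and Stat6, the effector of interleukin 4, were not called in any comparison in the unpaired or the blocked fit. Stat3 ran from 6.56 to 7.80 log2 CPM over the 16 libraries, its lowest value in the untreated library of WT mouse A. Its LPS change in the WT was 0.38 (SE 0.25, FDR = 0.309), and 0.62 in mouse A against 0.16 in mouse B. Without that untreated library the change was -0.09, and without the untreated library of WT mouse B it was 0.84 and was called (FDR = 0.00714), in a fit that called 46.6% of all genes. In the KO the change was 0.12 (SE 0.25, FDR = 1).

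Stat6 was the steadiest member, between 7.85 and 8.15 log2 CPM in every library. Stat5a, at 4.25 to 4.82, was the least abundant per length. In LPS-treated cells it was at 4.57 to 4.67 in the 3 KO libraries and at 4.26 to 4.48 in the 3 WT libraries, a difference of 0.25 (SE 0.10, FDR = 0.558) with no overlap that was not called. Groups did not overlap, in either direction, for 13.7% of all genes there. Stat5a and Stat5b are close paralogues, and 72 bases of Stat5a exons overlap Stat3 exons on the opposite strand. The strand setting of the counting is not given in the sources used here, so a part of these counts may be shared, as may those of Stat6 with Nab2 (40 bases) and of Jak1 with Raver2 (4 bases). Stat3 (100885098 to 100939540, minus strand) and Stat5a (100859351 to 100885169, plus strand) are neighbours on chromosome 11, and Stat6 lies on chromosome 10 (127642986 to 127660957, plus strand).

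Jak2, the kinase of receptors for growth factors and for interferon gamma among others, was higher under LPS than untreated in both genotypes without overlap, and the rise was called in the WT. It was at 5.04 and 5.63 log2 CPM in untreated WT mice A and B and at 6.19, 5.91 and 6.00 under LPS (A, B, C). In the KO it was at 5.88 and 5.77 untreated and at 6.26, 6.30 and 5.95 under LPS. In both genotypes the 3 LPS libraries lay above both untreated ones, as did those of 14% of all genes for the WT and 12.6% for the KO. The change was 0.70 in the WT (SE 0.16, FDR = 0.0201, 1.63-fold), which was called, and 0.35 in the KO (SE 0.16, FDR = 0.572), which was not. The call rested on the untreated library of WT mouse A: without it the WT change was 0.40 (FDR = 0.22). Fitted on the WT libraries alone the change had an FDR of 0.172. The difference in response between genotypes was -0.36 (SE 0.23, FDR = 0.69). It was -0.06 without the untreated library of WT mouse A, and -0.65 without that of WT mouse B, where it was called (FDR = 0.0159) with 48.5% of all genes. Jak2 lies on chromosome 19 (29251828 to 29313080, plus strand) and Jak1 on chromosome 4 (101152367 to 101265282, minus strand), both in GRCm38.

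Socs3 and Jak2 were the 2 of 7 members called for LPS in the WT, where 9.15% of all genes were called in either direction at FDR below 0.1 and more than 1.5-fold. In the KO Socs3 was the 1 member called, where 4.32% of all genes were. The median LPS change of the 7 members was 0.27 for the WT and 0.09 for the KO, and over all genes it was 0.02 and -0.01. LPS and untreated libraries did not overlap for 2 of the 7 members in the WT (Socs3 and Jak2, higher), where this held for 25.5% of all genes in either direction. In the KO it held for 4 of the 7 (Socs3 and Jak2 higher, Stat2 and Stat5a lower) and for 25.8% of all genes.

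Jak1, which serves interferon and interleukin 6 family receptors, was not called with LPS or Dex when all libraries were used, and was higher in the KO in every pair of mice. Its change with LPS was 0.27 in the WT (SE 0.16, FDR = 0.264), of which mouse A showed 0.63 and mouse B 0.02, and 0.01 in the KO (SE 0.16, FDR = 1). Without the untreated library of WT mouse B the WT change was 0.59 and was called (FDR = 0.000925), and without that of mouse A it was -0.06. Under LPS it was at 8.30, 8.35 and 8.15 log2 CPM in the WT (A, B, C) and at 8.58, 8.48 and 8.46 in the KO (A, B, C). With Dex added it was at 8.30, 8.37 and 8.15 in the WT and at 8.59, 8.60 and 8.61 in the KO. KO libraries lay above WT libraries without overlap in all 3 treatments. Over all genes, groups did not overlap in either direction for 29.4% untreated, 13.7% under LPS and 17.8% under LPS + Dex. The Jak1 differences were 0.24 under LPS (SE 0.10, FDR = 0.558) and 0.33 under LPS + Dex (SE 0.09, FDR = 0.235), neither of them called or above 1.5-fold. Untreated it was 0.49, from 0.88 in pair A and 0.11 in pair B, and was not called. Without the untreated library of WT mouse A it was 0.17, and without that of WT mouse B it was 0.82 and was called (FDR = 0.0176), in a fit that called 40.6% of all genes.

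**Figure D2:**
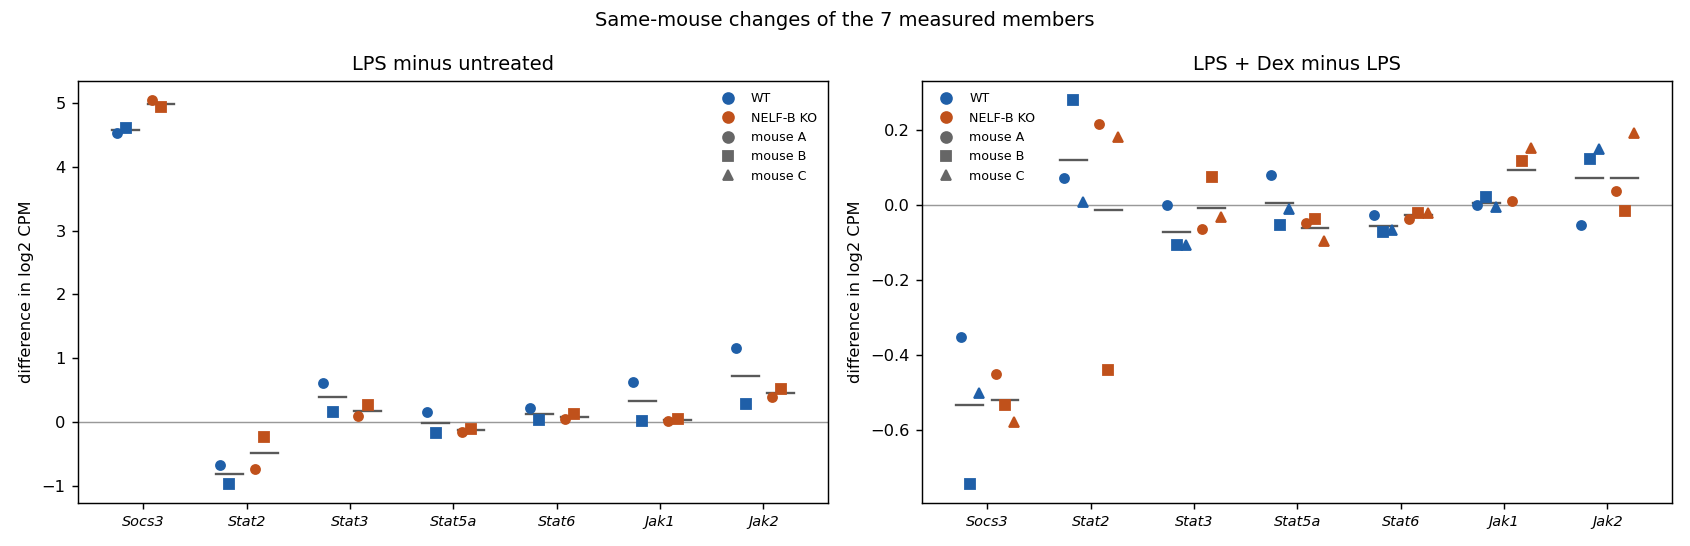
Change in log2 CPM within a mouse (vertical axes, which differ in scale) for each measured member, for LPS minus untreated on the left and LPS + Dex minus LPS on the right. Points are mice, lines are means, and colours are genotypes. Socs3 rises by 4.54 to 5.04 with LPS and is below 0 with Dex in all 6 mice, while the Dex changes of the other members lie between -0.44 and 0.28.

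Dex changed none of the other 6 members by a called amount. Their mean Dex changes lay between -0.07 and 0.12 in the WT and between -0.06 and 0.09 in the KO, and none was called under any of the alternatives tried. In the KO all 3 LPS + Dex libraries of Jak1 lay above all 3 LPS libraries, by 0.009 to 0.151 within a mouse. Groups did not overlap for 9.67% of all genes there. The median Dex change of the 7 members was 0.00 for the WT and -0.02 for the KO (-0.01 and 0.00 over all genes). In the unpaired fit 0 of 7 members were called with Dex in either genotype, where 0.988% of all genes were called for the WT and 1.28% for the KO. At an unadjusted p below 0.05 it was 1 of 7 (Socs3) in each genotype, against 3.45% of all genes for the WT and 3.87% for the KO, and voom on recovered reads called 0. The intervals leave small changes possible: for Stat3 in the WT the 95% interval ran from -0.55 to 0.40, and for Stat6 from -0.25 to 0.13.

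**Figure D3:**
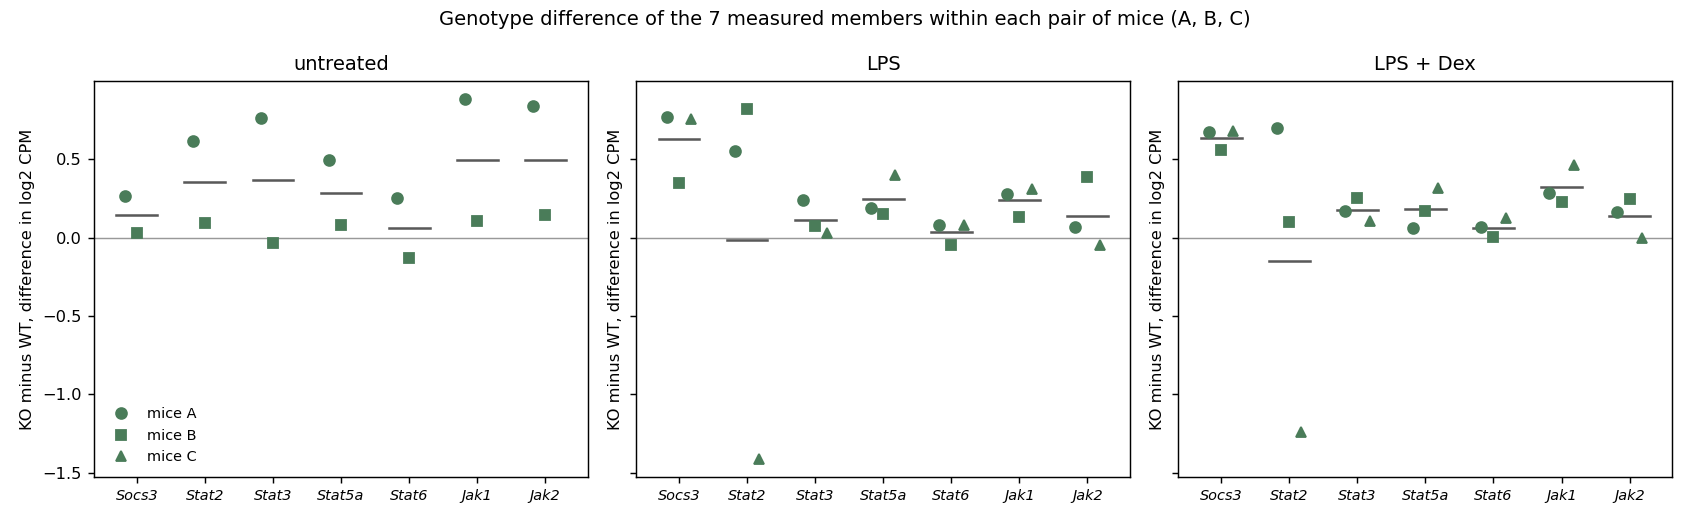
KO minus WT difference in log2 CPM (vertical axis) of each measured member within each pair of mice, untreated, under LPS and under LPS + Dex. Points are pairs of mice A, B and C and lines are means. Under LPS and LPS + Dex the points of Socs3, Stat3, Stat5a and Jak1 are all above 0, and the pair C of Stat2 lies at -1.41 and -1.24.

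No member was called for KO against WT in the unpaired fit of any treatment, where 0% of all genes were called. The number of genes at an unadjusted p below 0.05 was 37 untreated, 811 under LPS and 1090 under LPS + Dex, and voom on recovered reads called 0, 3 and 3. Of the 7 members, 0 untreated, 3 under LPS (Socs3, Stat5a and Jak1) and 2 under LPS + Dex (Socs3 and Jak1) had an unadjusted p below 0.05, as had 0.385%, 8.44% and 11.3% of all genes. For the genotype difference in the LPS and in the Dex response, 0% of all genes were called, and 221 and 0 genes had an unadjusted p below 0.05. Untreated, 5 of 7 members (Socs3, Stat2, Stat5a, Jak1 and Jak2) had both KO libraries above both WT libraries. Groups did not overlap for 29.4% of all genes in that comparison, and in pair B alone the 7 differences lay between -0.13 and 0.14. Under LPS it was 3 of 7 (Socs3, Stat5a and Jak1), where groups did not overlap for 13.7% of all genes, and under LPS + Dex 3 of 7 (Socs3, Stat6 and Jak1), where they did not for 17.8%. The median difference over the 7 members was 0.35 untreated, 0.14 under LPS and 0.18 under LPS + Dex, and over all genes it was 0.02, 0.00 and 0.01.

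The surroundings of the members were read from a list of 102 other pathway genes, of which 77 were in the table. The list was drawn up with earlier results of these data known, so the shares of all genes give scale and are no test of it. With LPS in the WT, 24 of the 77 rose and 1 fell, where 6.01% of all genes rose and 3.14% fell. In the KO 22 rose and 1 fell, where 3.08% of all genes rose and 1.24% fell. The rises sat with ligands and target genes: 9 of 11 cytokine ligands and 10 of 19 genes known as STAT targets rose in the WT, against 2 of 23 receptors, 2 of 15 phosphatases, PIAS proteins and adaptors, and 1 of 9 other SOCS, STAT and JAK genes (Socs7). Of 24 ligands listed, 11 were in the table. Whether some of these, near 0 reads untreated, had a row only through their LPS libraries was not tested. If so, the shares for ligands and for the 77 genes are raised by it. With the mouse as replicate block 30 of the 77 rose and 3 fell in the WT, where 11.8% of all genes rose and 9.11% fell. The ligands and targets that rose were again 9 and 10, the phosphatases, PIAS proteins and adaptors 5 of 15, and the other SOCS, STAT and JAK genes 4 of 9 (Socs4, Socs5, Socs7 and Tyk2). Without the untreated library of WT mouse A and without the block, 19 of the 77 rose and 1 fell (3.09% and 1.23% of all genes), among them 8 ligands, 10 targets, 0 receptors and 0 of the 9 other SOCS, STAT and JAK genes. Socs7 was then at 0.27 (FDR = 0.258) and Ptprc, a phosphatase, at 0.12 (FDR = 0.713). The largest called rises were those of the ligands Ifnb1, Il6 and Csf3. Il6 went from -2.11 ± 0.20 log2 CPM (SD, n = 2) in untreated WT cells to 5.82 ± 0.40 under LPS (n = 3), a change of 7.93 (SE 0.44, limma FDR = 7.1e-08), and of 7.78 without the untreated library of WT mouse A. Its untreated level also rested on few reads, so the size of this change is uncertain. Ifnb1, interferon beta, was at -5.15 and -4.04 in untreated WT libraries, where -5.15 is the lowest value of the table, and at 5.67 ± 0.65 under LPS. Csf3, granulocyte colony-stimulating factor, was at -3.77 and -2.66 untreated and at 4.40 ± 0.53 under LPS. No fold is given for Ifnb1 and Csf3, since at least 1 untreated library of each was near or under 3 reads. The only fall was that of Id1, an inhibitor of basic helix-loop-helix factors, at -2.58 in the WT (FDR = 0.00467, and -2.02 with FDR = 0.0885 without that library) and -1.90 in the KO (FDR = 0.0425).

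With Dex, 2 of the 77 pathway genes rose and 4 fell in the WT, where 0.666% of all genes rose and 0.322% fell. In the KO 1 rose and 4 fell (0.832% and 0.447% of all genes), and these 5 were among the 6 of the WT. Il15ra, the alpha chain of the interleukin 15 receptor, went from 1.65 ± 0.36 to 4.28 ± 0.30 log2 CPM in the WT (change 2.63, FDR = 2.8e-05) and from 1.39 ± 0.06 to 4.21 ± 0.14 in the KO (2.81, FDR = 1e-05). Bcl2l1, an inhibitor of apoptosis, rose by 0.61 in the WT (FDR = 0.0782), and in the KO its 0.55 was not called (FDR = 0.113). Lif, a ligand of the interleukin 6 family, fell by 1.68 in the WT (FDR = 0.0284) and by 1.42 in the KO (FDR = 0.0611). The target genes Irf1, a transcription factor of the interferon system, Pim1, a survival kinase, and Bcl3, a partner of NF-kB, fell in both genotypes: Irf1 by 0.81 and 0.93, Pim1 by 0.80 and 0.74, and Bcl3 by 0.56 and 0.76 (WT and KO). Socs3, with changes of -0.53 and -0.52, was close in size to Bcl3 in the WT and smaller in the KO, and was called only with the block.

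**Figure D4:**
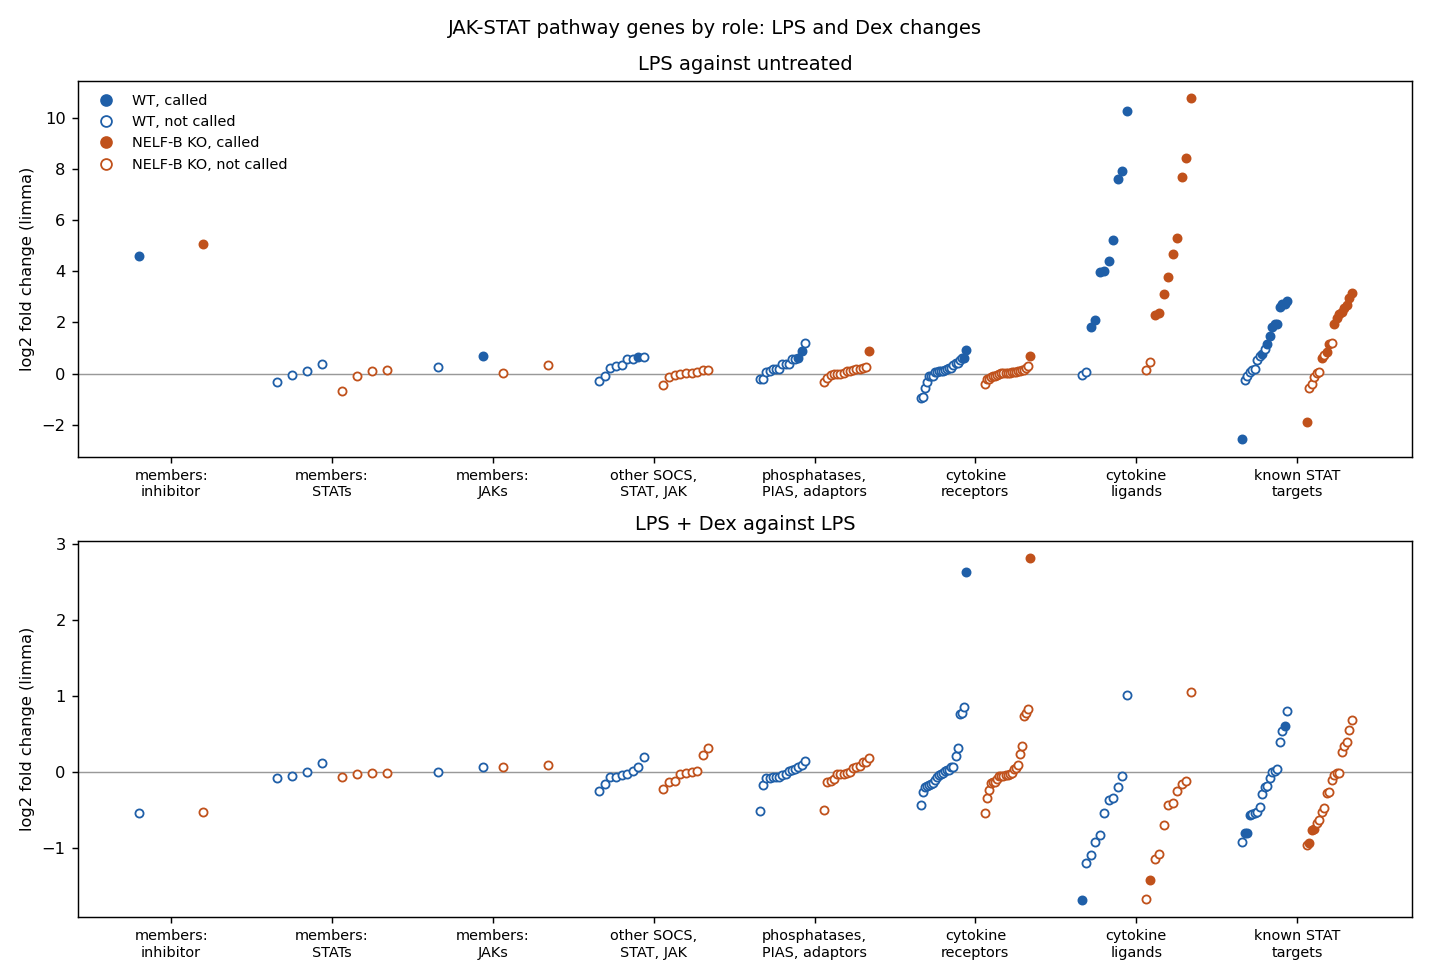
Limma log2 fold change (vertical axis) of the 7 measured members and the 77 other pathway genes by role, for LPS against untreated (top) and LPS + Dex against LPS (bottom). Points are genes ordered by value within a role, colours are genotypes, and filled points were called. Called rises with LPS sit among ligands and target genes, Il15ra stands out with Dex at 2.63 and 2.81, and the heights of Ifnb1 and Csf3, whose untreated level was near 0 reads, are no measure of size.

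With the mouse as replicate block, 5 of the 77 genes were called higher and 11 lower with Dex in the WT, and 4 higher and 12 lower in the KO. Over all genes the shares called higher and lower were 1.37% and 1.22% for the WT and 1.57% and 1.45% for the KO. Among them, named after their values were seen, were the ligand genes Il6 (-0.92 and -1.08 in WT and KO) and Osm (-0.82 and -0.69) and the receptor genes Il6st, which encodes the signalling chain shared by the interleukin 6 family (0.78 and 0.83), and Lifr (0.86 and 0.74). Of the 9 other SOCS, STAT and JAK genes in the table, 0 were called with Dex in either genotype, with or without the block. For KO against WT, 0 of the 77 were called in any treatment, with or without the block. Over all genes 0% were called without the block, and with it 0.0312% untreated, 0.125% under LPS and 0.499% under LPS + Dex.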

How the data were processed

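RNA-seq libraries of BMDM were sequenced, aligned to mm10 and counted by the authors, who deposited log2 CPM values scaled with edgeR. The submitters' processing notes name CASAVA 1.8, FastQC and edgeR. The table also holds 18 columns of p-values, raw and adjusted, which the authors deposited for their own comparisons and which were not used. Reads per library, summed over the genes of the table, were recovered from the steps between values under 3 CPM (tolerance 0.15 read, 100% whole). A count of 3 reads corresponded to 0.0653 to 0.136 CPM, which covers counting error only.

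The 9 members, the other gene lists and the tests were chosen with earlier results of these data known. LPS, Dex and interaction contrasts came from 1 limma 3.58.1 fit (R 4.3.3, trend) of all 16 libraries, and KO against WT from the libraries of 1 treatment. P-values were adjusted over 9614 genes (FDR). Genes were called at FDR below 0.1 and over 1.5-fold (LPS) or 1.3-fold (Dex), FDR below 0.05 and over 1.5-fold (genotype), or FDR below 0.1 (interactions). The scripts were tested on simulated data.

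The mouse numbers in the labels pair libraries of the same animal: within a genotype, deviations from group means correlated at 0.185 to 0.939 in same-mouse pairs. The replicate block was the mouse for treatments and the pair letter for genotype (correlations 0.351 to 0.76). Each treated culture came from 1 mouse, so n counts mice. Alternatives were the block, a filter on low values, log2(CPM + 1), median centring, voom on recovered reads, other sets of libraries, unadjusted p and leaving out each library. Beyond the members, the genes named were those called with Dex or for genotype, the 3 largest called LPS rises and falls in the WT, Nelfb, and the 3 genes nearest Socs3. Upstream windows were taken from RefSeq (GRCm38.p6, 250 bases), with all 7 measured members matched, and positions from GENCODE vM21.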

Additional observations from a re-analysis of the deposited data

How the results depend on the processing

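Of 673 values recomputed under alternatives, 613 were unchanged. For a gene, unchanged means the same direction and side of the threshold. For a count of members called, it means equal to the main count or within 1.5-fold of it. The Dex changes of the 6 members other than Socs3, and their genotype differences in the Dex response, are not among the 673. The number of members called for LPS in the WT was 2, fell to 1 when only that genotype was fitted (3.57% of all genes called), and ran from 1 (without the untreated library of WT mouse A, 4.32% of all genes) to 4 (without that of mouse B, 46.6%) when libraries were left out. With libraries paired by mouse as replicate block, 1 member (Socs3) was called with Dex in the WT and 1 in the KO. With the pair letter as block, where pair A is inferred, 1 was called for KO against WT under LPS + Dex. An unadjusted p with more than 1.5-fold called 1 member (Socs3) for KO against WT under LPS and 1 under LPS + Dex. Leaving out a library gave 0 to 3 members called for KO against WT untreated, and 0 to 3 for the genotype difference in the LPS response, in both cases 3 without the untreated library of WT mouse B, in fits that called 40.6% and 48.5% of all genes. The direction changed when libraries were left out for the LPS change in the WT of Stat3 (-0.093 to 0.84), Stat6 (-0.012 to 0.24), Jak1 (-0.060 to 0.59) and Stat5a (-0.20 to 0.060), and in the KO of Jak1 (-0.052 to 0.073, and -0.046 with median centring). It also changed for KO against WT of Stat3 (-0.10 to 0.83) and Stat6 (-0.064 to 0.18) untreated and of Stat2 under LPS (-0.30 to 0.49) and LPS + Dex (-0.46 to 0.30), and for the genotype difference in the Dex response of Socs3 (-0.092 to 0.12). The genotype difference in the LPS response changed direction for Stat2 (-0.66 to 0.13), Stat3 (-0.72 to 0.22), Stat5a (-0.17 to 0.093), Stat6 (-0.15 to 0.10) and Jak1 (-0.58 to 0.070), and without the untreated library of WT mouse B those of Stat3, Jak1 and Jak2 were called. With the replicate block it was 0.26 for Stat2, and with the block and without the untreated library of WT mouse A it was 0.35 for Stat2, 0.042 for Stat3, 0.085 for Stat5a, 0.051 for Stat6 and 0.12 for Jak2. Of the 6 members other than Socs3, the Dex change, which was called under none of the alternatives, changed direction for 4 in the WT, 3 in the KO and 4 for the genotype difference. Values without the untreated library of WT mouse A under the block were added after the data were seen: Stat2 in the WT was then -0.88 (FDR = 0.00177) and Jak2 0.30 (FDR = 0.0227, under 1.5-fold). Otherwise the replicate block changed no call of a member but Stat2 for LPS in the WT. The cause of these changes was not tested beyond the libraries named. Untreated groups of 2 libraries and genotype groups of 3 limit what could be called.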
